A study of Mus musculus with 8 samples.

Results

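The suppressor of cytokine signalling (SOCS) family was followed in primary mouse hepatic stellate cells with and without the interleukin-15 receptor alpha chain (IL15Ra). Its 8 genes, Socs1 to Socs7 and Cish, were taken by symbol from the annotation of the array platform, and 10 of the 25697 probes carried one of these symbols, against 16593 genes named on the array in all. The samples were 4 IL15Ra-knockout and 4 control samples, each hybridised once, in a single colour, to Illumina's MouseRef-8 v2.0 bead arrays. Both groups are labelled as stellate cells of B6/129 mice bought at an age of 6 weeks, the control group as wild type, and no treatment is named for either. Livers were digested in place with pronase and collagenase, and the cells were collected on a density gradient and cultured with serum. RNA was taken at passage 0. The labels do not say whether each sample came from its own animal or from pooled animals, and all p-values therefore refer to the spread among samples that may be technical repeats. The mice are labelled female, but the probes of the Y-linked genes Uty, Kdm5d and Eif2s3y were above background on all 8 arrays.

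Several SOCS proteins are induced by cytokines and shut the same signal off again. Each protein of the family joins a domain that binds phosphotyrosine to a SOCS box. That box recruits elongins B and C and the scaffold Cul5 into a ubiquitin ligase that marks receptors and kinases for degradation. SOCS1 and SOCS3 also block Janus kinases (JAKs) directly, whereas CIS, the product of Cish, and SOCS2 are classical feedback products of the transcription factor STAT5. Interleukin-15 signals through shared receptor chains, JAK1 and JAK3 to STAT5, and the alpha chain missing here presents the cytokine. In the liver, SOCS3 is best known as the brake on interleukin-6 signalling through STAT3.

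No member of the family passed the test between knockout and control. Of the 10 probes, 6 were above background (detection p under 0.05) on at least 4 arrays and were tested, 1 each for Socs2, Socs3, Socs4, Socs5, Socs6 and Cish, while 0 probes of Socs1 and Socs7 met that filter. With limma and Benjamini-Hochberg adjustment over all 9433 tested probes, 0 of the 6 had an adjusted p under 0.05, where 50 probes (0.530%) passed over the whole array, 0.233% higher and 0.297% lower in the knockout. At an unadjusted p under 0.05 there was 1 member, Socs3, lower in the knockout, where 6.31% of all tested probes reached that level, 2.21% with a value lower in the knockout. The 6 log2 differences, knockout minus control, ran from -0.74 to 0.48 with a median of -0.05, 3 above and 3 below 0, and the median over all tested probes was 0.03.

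The arrays differed in brightness and in the number of probes above background. Median signals before normalisation followed the groups, between 113.6 and 121.4 on the knockout and between 122.9 and 149.8 on the control arrays. The number of detected probes did not. Between 6760 and 10516 probes were above background, with the fewest on control 3 (6760), knockout 1 (7765) and knockout 4 (7830), and these 3 arrays lay at the negative end of the component that held 78.2% of the variance. None of the 4 Il15ra probes was above background on any array (lowest detection p 0.178), so the targeted gene checks nothing about the labels. Of the 11 stellate cell markers with a probe, 5 were tested, and Des, Acta2 and Reln were above background on all 8 arrays. Reln was the only one of the 5 past the threshold, and its mean was lower on knockout arrays, 9.42 ± 0.34 against 11.03 ± 0.35 on control arrays (SD, n = 4 each; limma adjusted p = 0.0289). The other 4 did not pass, while the probes of Lrat, Lhx2, Hand2, Hhip, Ngfr and Vipr1 were not above background on any array. Macrophage genes such as Adgre1, Lyz2 and Vsig4 were above background on all 8 arrays, so every value is that of a whole culture, and fewer cells of a type cannot be told apart from less RNA per cell.

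The start regions of Socs3 and Cish are printed because both genes are known STAT targets. Their differences also kept their sign, in opposite directions, under every alternative that could change the estimate. RefSeq start regions of GRCm38.p6, which cover 250 bases before and 50 bases after the start, were at hand for 4 of the 8 members. A script searched them on both strands for the core of the STAT element, TTCNNNGAA, which the capitals mark. The lines give 180 bases before to 20 bases after the start of Socs3 (chr11:117969347-117969546, minus strand) and Cish (chr9:107296479-107296678, plus strand).
Socs3: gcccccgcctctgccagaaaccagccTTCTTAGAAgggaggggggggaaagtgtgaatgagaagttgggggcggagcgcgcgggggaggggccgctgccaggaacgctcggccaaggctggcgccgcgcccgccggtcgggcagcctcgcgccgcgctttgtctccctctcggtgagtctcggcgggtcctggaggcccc
Cish: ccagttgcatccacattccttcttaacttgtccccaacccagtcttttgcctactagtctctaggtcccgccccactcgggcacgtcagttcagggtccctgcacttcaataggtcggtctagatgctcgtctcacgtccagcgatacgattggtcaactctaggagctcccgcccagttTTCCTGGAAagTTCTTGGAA
Socs3 held 1 match of TTCNNNGAA, TTCTTAGAA from base -154 to -146 before the start. Cish held 2 that do not overlap, TTCCTGGAA from base 1 to 9 and TTCTTGGAA from base 12 to 20 counted from the start, so that they lie just inside the transcribed part of this model. The start regions of Socs1 and Socs4 held 0 matches. Of 32851 start regions of the same length, 8.30% held at least 1 TTCNNNGAA and 0.457% at least 2. These matches describe the letters of the windows and say nothing about binding in these cells.

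Socs3, the inhibitor that feeds back on interleukin-6 type cytokines, was the member whose groups lay apart. On the log2 scale after background correction and quantile normalisation its values were 9.61, 9.63, 9.86 and 9.86 on knockout arrays 1 to 4, and 10.39, 10.38, 10.11 and 9.87 on control arrays 1 to 4. All knockout values were below all control values, but the gap between the highest knockout and the lowest control value, control 4, was only 0.015. Before normalisation the signal was 581.3, 862.5, 999.7 and 937.3 on the knockout and 1517, 1444.5, 1272 and 1420.2 on the control arrays. These signals are not corrected for the higher median signal of every control array, and the part of that in them was not tested. They are therefore not counted as separate support for the separation. The mean was 9.74 ± 0.14 in the knockout and 10.19 ± 0.25 in the control group (SD, n = 4 each), a 1.37-fold lower mean in the knockout. The log2 difference of -0.45 had a standard error of 0.20, a 95% interval from -0.90 to -0.0027 and an unadjusted limma p of 0.0489, and the adjusted p was 0.786. Over all tested probes the groups did not overlap at 5.02%, and they did so with lower knockout values at 1.91%.

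The direction of the Socs3 difference was the same under each of the 23 alternatives computed, with values from -0.57 to -0.25. Changes of the filter, the variance model, the replicate block or the probe averaging left the estimate as it was. Those alternatives could not turn the sign and are no support for it. The groups also lay apart without background correction, with cyclic loess and in the authors' normalised values, but they overlapped with median scaling, where the highest knockout value was 10.11 and the lowest control value 9.50. With array weights estimated gene by gene the adjusted p was 0.0286, a setting under which 8.53% of all tested probes passed. With the default estimate of the weights, which did not converge, it was 0.00109, and 38.5% of all tested probes passed. Markers of other cell types were read on the same arrays. Of 6 marker lists, only the dendritic cell list, with 3 genes, and the stellate list, with Reln, held genes past the threshold, all lower in the knockout. The normalised signals of the 6 tested dendritic cell and major histocompatibility class II genes were summed. The sums ran from 1291 to 1981 on the knockout and from 14441 to 31433 on the control arrays. Bright genes weigh most in such a sum, and H2-Aa had the highest mean in both groups, 10.27 and 13.51. The genes that passed were H2-Aa, H2-Ab1 and H2-Eb1. Itgax differed by -1.14 with overlap between the groups (limma adjusted p = 0.913), and Flt3 and Cd209a were not above background on any array. The sums of 7 tested macrophage genes ran from 35674 to 40169 and from 36264 to 41422, which overlap. Of the 7 differences 3 lay above and 4 below 0, and 0 passed. Clec4f differed by -1.29 (limma adjusted p = 0.796) and Cd14 by -1.24 (limma adjusted p = 0.913). Both are dimmer than Adgre1 and Lyz2 and weigh little in the sum. For the 5 tested genes of T and NK cells the sums ran from 3204 to 6953 and from 2335 to 6753. Of their differences 2 lay above and 3 below 0. Cd3d was above background on 0 of 4 knockout and 4 of 4 control arrays (adjusted p = 0.195), while Cd3e differed by -0.25 (limma adjusted p = 0.937). For the 4 tested endothelial genes the sums ran from 352.3 to 696.8 and from 537.3 to 1056. Lyve1 differed by -1.54 (adjusted p = 0.355) and Stab2 by -0.66 without overlap (adjusted p = 0.667). All 4 endothelial differences lay below 0 under each of the 5 scalings, and 0 of the 4 passed in the main comparison. The 3 tested hepatocyte genes, Ttr, Ass1 and Serpina1a, had sums from 1613 to 2003 on the knockout and from 1159 to 1810 on the control arrays. All 3 differences lay above 0 under each of the 5 scalings, and 0 passed (smallest limma adjusted p = 0.913). The sums of the 5 tested stellate genes, Reln included, were 20026 to 20896 and 20697 to 22625. The part of these cells in the Socs3 difference was not tested.

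**Figure D1:**
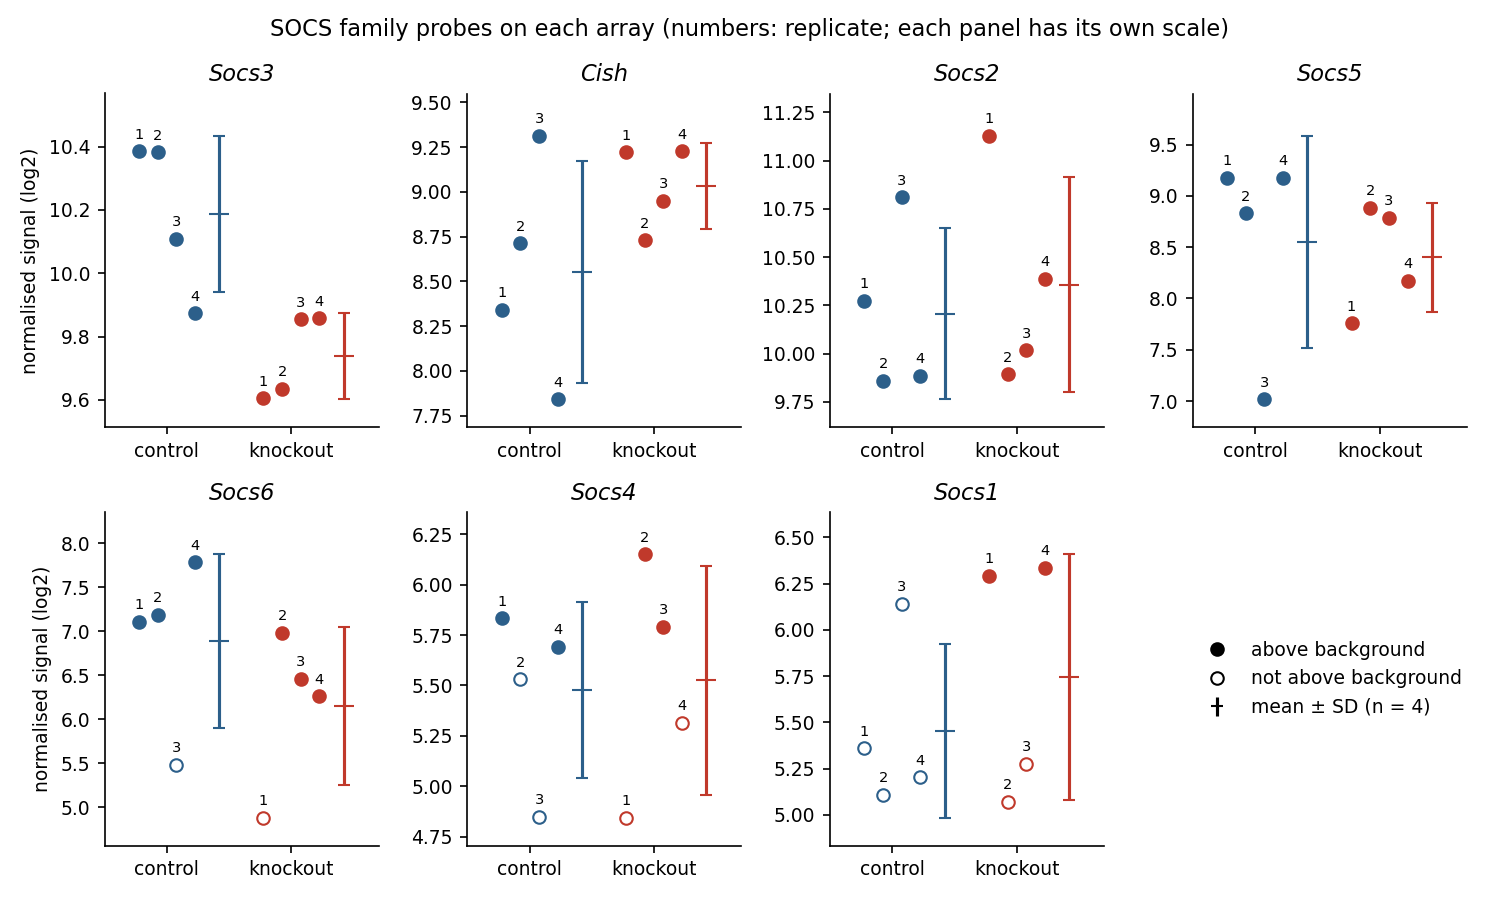
Normalised log2 signal of 7 SOCS family genes on each array, control in blue and knockout in red, with the replicate number beside each point, open points where the probe was not above background, and bars for the mean ± SD of 4 arrays. The knockout and control values of Socs3 do not overlap, with a gap of 0.015 between knockout 4 and control 4, and those of the other 6 genes overlap.

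Socs1, whose product inhibits JAK kinases and restrains interferon-gamma signalling, was near the limit of detection. Its probe was above background on knockout 1 and knockout 4 only (2 of 8 arrays), at 6.29 and 6.34, against 5.07 and 5.28 on knockout 2 and 3. The control values were 5.36, 5.11, 6.14 and 5.20, none of them above background. No fold is given because the bound computed from the dimmest detected probes was under 1, and Socs1 was not tested.

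Cish is the textbook STAT5 target of the family, and its product competes for the docking sites of STAT5 on cytokine receptors. Values were 9.22, 8.73, 8.95 and 9.23 on knockout arrays 1 to 4 and 8.34, 8.71, 9.31 and 7.84 on control arrays 1 to 4. Control 3 lay above every knockout array, while the other 3 control arrays lay below every knockout array. The mean was 9.03 ± 0.24 in the knockout and 8.55 ± 0.62 in the control group (SD, n = 4 each), and the difference of 0.48 had a standard error of 0.34, a 95% interval from -0.29 to 1.25 and an adjusted p of 0.913. The sign was the same under all 23 alternatives, some of which cannot change the estimate, from 0.25 without control 4 to 0.71 without control 3. Before normalisation the mean signal was 541.5 ± 69.9 on the knockout and 558.9 ± 85.8 on the control arrays (SD, n = 4 each), in the opposite order.

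Socs2, whose product restrains growth hormone signalling, had its highest value on knockout 1. The knockout arrays gave 11.13, 9.89, 10.02 and 10.39 and the control arrays 10.27, 9.86, 10.81 and 9.88. The groups overlapped over most of their range, with a mean of 10.36 ± 0.56 in the knockout and 10.21 ± 0.45 in the control group (SD, n = 4 each). The difference of 0.15 had a standard error of 0.33, a 95% interval from -0.59 to 0.88 and an adjusted p of 0.934, and its sign turned without knockout 1, where it was -0.11.

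Socs5, whose product has been linked to the turnover of the epidermal growth factor receptor, was above background on all 8 arrays. The knockout arrays gave 7.76, 8.88, 8.79 and 8.17 and the control arrays 9.18, 8.83, 7.02 and 9.18. A single array, control 3, lay below all others, and the remaining control values were 8.83 to 9.18. The mean was 8.40 ± 0.53 in the knockout and 8.55 ± 1.04 in the control group (SD, n = 4 each), with a difference of -0.15, a standard error of 0.52 and an adjusted p of 0.951. Without control 3 the difference was -0.64, and its sign turned without knockout 1 (0.068), control 1 (0.057) or control 4 (0.058).

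Socs4, the close relative of Socs5, was above background on 2 arrays of each group and dim throughout. Its values ran from 4.84 to 6.15 on the knockout and from 4.85 to 5.83 on the control arrays, and the means of 5.53 ± 0.57 and 5.48 ± 0.44 (SD, n = 4 each) differed by 0.05 with a standard error of 0.35 (adjusted p = 0.974). That difference is small against the spread, and its 95% interval runs from -0.73 to 0.83.

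Socs6, which belongs to the branch of the family linked to insulin and receptor tyrosine kinase signalling, had the largest difference in size and the largest standard deviation over all 8 arrays, 0.96. The knockout arrays gave 4.88, 6.98, 6.46 and 6.26 and the control arrays 7.11, 7.19, 5.48 and 7.78, with knockout 1 and control 3 not above background. The groups overlapped, since control 3 read lower than 3 of the knockout arrays. Over all arrays the mean was 6.15 ± 0.90 in the knockout and 6.89 ± 0.98 in the control group (SD, n = 4 each), and the difference of -0.74 had a standard error of 0.59, a 95% interval from -2.07 to 0.58 and an adjusted p of 0.913. The sign held under all 22 alternatives that tested the probe, from -1.26 without control 3 to -0.32 without knockout 1. Some of these alternatives cannot change the estimate. The other Socs6 probe was above background on 0 of 8 arrays, and the same holds for both probes of Socs7, the sister gene of Socs6, whose lowest detection p was 0.208.

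**Figure D2:**
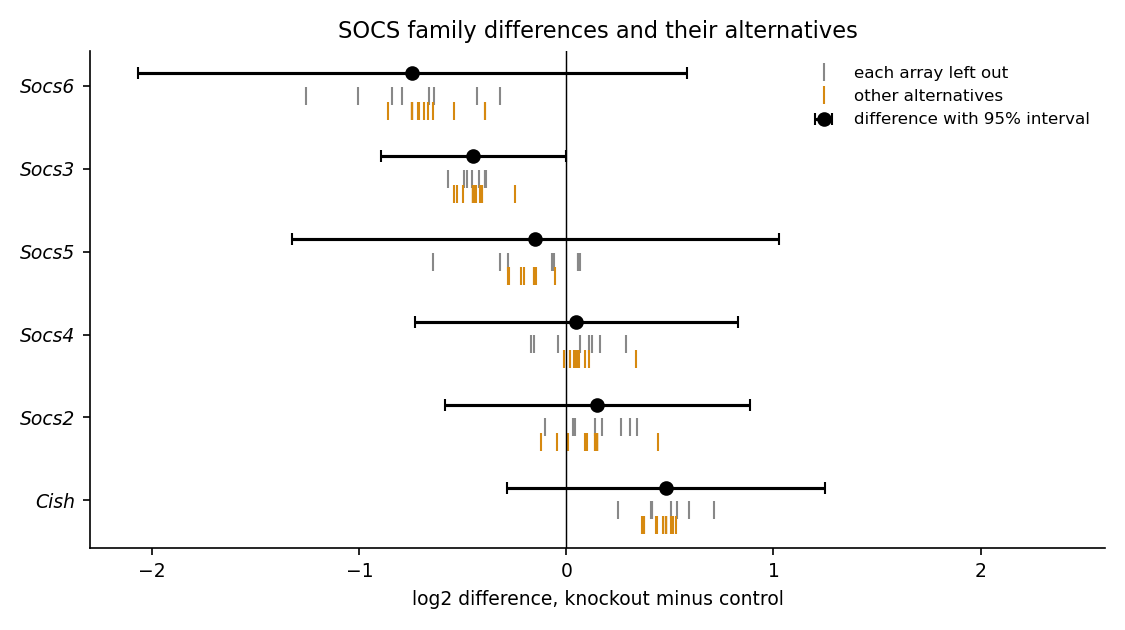
Log2 difference, knockout minus control, of the 6 tested SOCS family probes, with the 95% interval as a bar, the values with each array left out as grey ticks and those of the other alternatives as orange ticks. The ticks of Socs3 and Socs6 all lie below 0 and those of Cish above 0, while Socs2, Socs4 and Socs5 have ticks on both sides.

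Within both groups, most members differed between the arrays with the fewest probes above background and the others. On the 3 arrays with the fewest probes above background (knockout 1, knockout 4 and control 3), Cish read 9.22 to 9.31 and Socs2 10.39 to 11.13, above their values on the other 5 arrays, which reached 8.95 and 10.27. In the opposite direction, Socs5 read 7.02 to 8.17 there against 8.79 to 9.18 elsewhere, Socs6 4.88 to 6.26 against 6.46 to 7.78, and Socs4 4.84 to 5.31 against 5.53 to 6.15. Those 3 arrays thus stood apart from the other 5 at 5 of the 6 members, 2 higher and 3 lower, and over all tested probes they stood apart at 66.4%. Socs3 was the exception, at 9.61 to 10.11 on the 3 arrays against 9.63 to 10.39 on the others.

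The comparison was repeated with each array's number of detected probes in the model and without those 3 arrays. With this covariate the standard errors of all 6 members were smaller and 0 of them passed, where 7.10% of all probes did. Socs3 differed by -0.45 with a standard error of 0.16 (adjusted p = 0.120), Cish by 0.43 with 0.20 (adjusted p = 0.219) and Socs6 by -0.64 with 0.29 (adjusted p = 0.208). Without the 3 arrays, which left 2 knockout and 3 control arrays, the differences were -0.42, 0.51 and -0.67, and 0 members passed where 1.78% of all probes did. The groups did not overlap for these 3 genes in that smaller set, as for 30.2% of all probes. For Socs3 the closest values were then 9.98 on knockout 3 and 9.9986 on control 4, and for Cish 8.97 on knockout 2 and 8.95 on control 2. Among the cell type markers, Lyve1, Cd3d, Cd74 and Ciita passed in both fits though not in the main comparison, all lower in the knockout. The limma adjusted p was 0.000638 and 0.0330 for Lyve1, and 0.00140 and 0.0307 for Cd3d. Clec4f and Cd14, also lower, passed with the covariate only (limma adjusted p = 0.0294 and 0.0243).

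**Figure D3:**
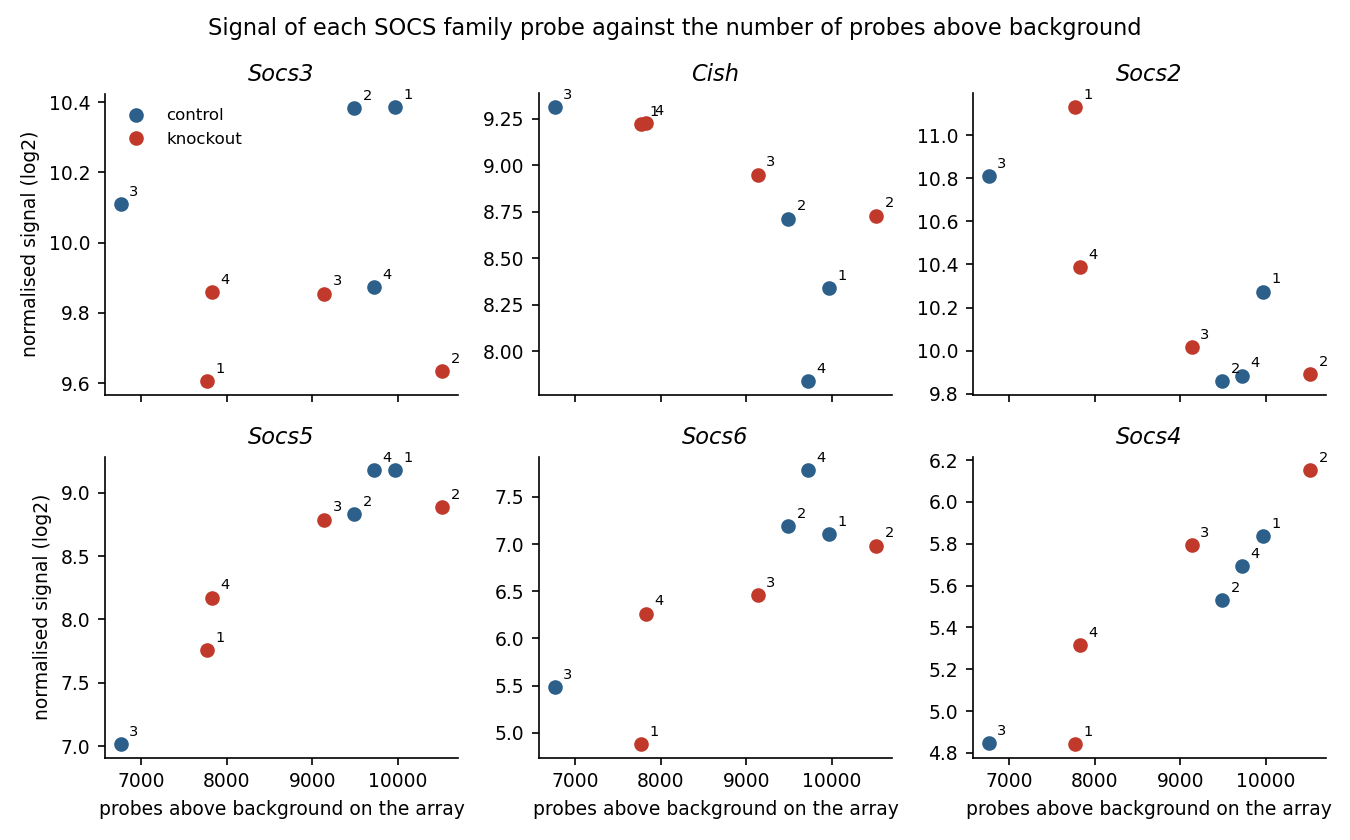
Normalised log2 signal of each tested SOCS family probe against the number of probes above background on the array, control in blue and knockout in red, with the replicate number beside each point. Cish and Socs2 are highest and Socs4, Socs5 and Socs6 lowest on the 3 arrays with 6760 to 7830 probes above background, and Socs3 follows no such order.

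For the members that varied most, the probes with the most similar profiles over the 8 arrays were looked up. Likeness was the root mean square distance between log2 profiles centred on their own means, and members with a standard deviation over 0.5 were used. Nearest to Cish were Prkrip1 at 0.095, Ncaph2 at 0.097 and Fam171a1 at 0.098. Nearest to Socs5 were Miga2 at 0.088, Ercc5 at 0.094 and Lyrm2 at 0.099, and nearest to Socs6 were Lta4h at 0.17, Ctsh at 0.20 and Rnf40 at 0.21. Within the family the closest pairs were Socs2 with Cish and Socs4 with Socs5, both at 0.39, and the most distant was Socs6 with Cish at 1.32. All 9 named genes had adjusted p-values over 0.9 between the groups, and all profiles were read on the same 8 arrays, so shared array effects enter every distance.

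The genes around the family in the JAK-STAT pathway gave a similar picture. Over 7 lists with 88 genes, 81 had a probe and 54 were tested, each on its probe with the highest mean signal, and 0 of the 54 passed the threshold with limma in either direction, where 0.530% of all tested probes did. Their median difference was -0.14, against 0.05 over all 7361 tested genes, and 2 of them had an unadjusted p under 0.05, namely Timp1 and Junb, a share below the 6.31% of all tested probes.

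Partners in the ubiquitin ligase were measured for 6 of 8 genes, 3 above and 3 below 0. Rbx1, a RING subunit of cullin ligases, differed by 0.19 (adjusted p = 0.913), and Eloc, which encodes elongin C, by -0.57 with a standard error of 0.44. Cul5, the scaffold itself, was above background on all 8 arrays and differed by -0.14. Among JAK kinases and STAT factors, 6 of 11 genes were tested, with differences from -0.69 for Jak1 to 0.29 for Stat3. Stat5a differed by 0.22 with a standard error of 0.42, and the Stat5b and Stat2 probes were not above background on any array. Other inhibitors of the pathway, with 6 of 11 genes tested, ran from -0.27 for the phosphatase gene Ptpn6 to -0.0027 for Ptpn1, and the smallest adjusted p was 0.913. Their direction depended on the scaling, since all 6 lay below 0 with quantile normalisation and 5 of the 6 above 0 with median scaling. It also depended on the probe, since another tested probe of Ptpn11 differed by 0.37 with quantile normalisation (limma adjusted p = 0.913).

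Receptors on which SOCS proteins act were tested for 9 of 21 genes. Ifnar2, a chain of the type I interferon receptor, averaged 7.86 ± 0.16 on knockout and 8.35 ± 0.10 on control arrays (SD, n = 4 each), with an adjusted p of 0.876, and Egfr averaged 10.28 ± 0.45 and 9.68 ± 0.62 (adjusted p = 0.913). Another tested probe of Egfr differed by 0.90, with an unadjusted limma p of 0.0250 and an adjusted p of 0.585. The other tested probe of Ifnar2 differed by -0.64 (limma adjusted p = 0.833). Il6st, the shared chain of the interleukin-6 receptor family, differed by -0.43 and Ghr, the growth hormone receptor gene, by 0.10. Among the ligands, with 8 of 13 genes tested, Il10 differed by -1.06 with a standard error of 0.49 (adjusted p = 0.828) and Ctf1 by 0.81 with 0.45. Il6 differed by -0.14 and Il15 by 0.06, both with adjusted p-values over 0.9.

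STAT target genes were read in 2 lists. Of 14 tested STAT3 targets, 5 lay above and 9 below 0, with Timp1 averaging 12.62 ± 0.21 on knockout and 11.88 ± 0.32 on control arrays (SD, n = 4 each; adjusted p = 0.174 with limma) and Junb at 7.37 ± 0.40 and 8.52 ± 0.66 (adjusted p = 0.487). Among 10 tested STAT5 targets, 4 lay above and 6 below 0, and the smallest p-values belonged to Ccnd2, a cyclin gene, with a difference of -0.69, and Id1, with -0.88, both with an adjusted p of 0.913. With the detected-probe covariate in the model 3 of the 54 genes passed, namely Timp1, higher in the knockout, and Junb and Il10, lower, and without the 3 arrays 1 passed, Timp1. Of all tested probes 7.10% and 1.78% passed in these fits, so the counts are near the background.

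**Figure D4:**
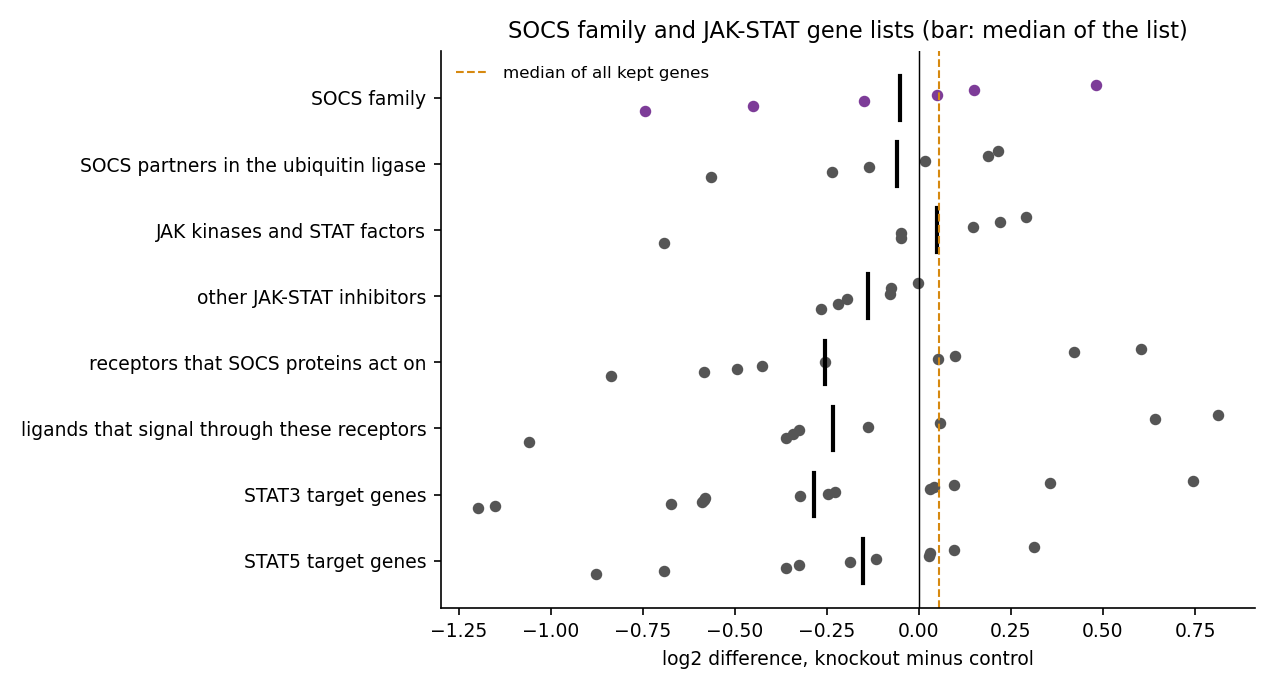
Log2 difference, knockout minus control, of the tested genes of 7 JAK-STAT gene lists and of the 6 tested SOCS family probes, with 1 point per gene, a black bar at the median of each list and a dashed line at the median of all tested genes. The SOCS family spreads around 0 from -0.74 to 0.48, and 0 genes of the 7 lists passed the threshold.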

How the data were processed

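Arrays were read in GenomeStudio, version 3 per the submitters' processing notes. The deposited raw table lists, per the file headers, an unnormalised linear intensity and a detection p-value for every probe on every array. The other deposited table holds the intensity after quantile normalisation by the authors, per the labels, and served only as an alternative. Columns of other samples were 0. The raw signals went through neqc (limma 3.58.1, R 4.3.3), which corrects background, quantile normalises and adds an offset of 16, so folds of dim genes are drawn towards 1. A probe was tested if its detection p was below 0.05 on 4 or more arrays, which left 9433. The model was lmFit with eBayes, with a trend on intensity, no block and Benjamini-Hochberg adjustment over these probes at 0.05. It was run on simulated data whose noise was independent between probes and arrays. Those data lack the array differences that many probes share here, so the run cannot show how the model fares with them. Groups came from the titles. The number of arrays limits the precision, and no batch label was at hand.

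Symbols came from the platform annotation, in which 1719 probes had none. Members and lists were chosen with earlier results of these data known, and 1 further list is not reported here. The text names all 8 members, up to 2 genes of each pathway list by smallest p, the 3 nearest profiles of each variable member, and further list genes chosen after their values were seen. Alternatives changed the background correction, offset, normalisation, filter, variance model, array weights or probe averaging, used the authors' values or a replicate block, or left out each array. The detected-probe covariate, the fit without 3 arrays and the gene-by-gene weights were chosen after seeing the data.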

Additional observations from a re-analysis of the deposited data

Results flagged for a closer look

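Socs5 on control 3 lay far from the other control arrays, at 7.02 on the log2 scale against 8.83 to 9.18, and its gap to the nearest of them was 0.839 of the range of the group, above Dixon's 95% critical value for 4 samples. This was 1 of 12 groups checked, and chance gives such a gap in about 1 of 20 groups. Control 3 was also the array with the fewest probes above background, 6760. The part of this in the Socs5 value was not tested.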

How the results depend on the processing

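Across the alternatives no member had a call in the main comparison to lose. Default array weights, whose estimate did not converge and gave knockout 3 a weight of 36.8, passed 3632 of all probes (38.5%), 3 members and 24 pathway genes. The members were Socs3 (-0.50, adjusted p = 0.00109), Socs6 (-0.69, 0.00565) and Cish (0.53, 0.00610), and Socs2 turned to -0.12. Gene-by-gene weights passed 805 probes, 1 member, Socs3 (-0.53), and 3 pathway genes. Median scaling passed 91 probes (60 higher, 31 lower) and 0 pathway genes, with Socs4 at -0.012, and cyclic loess 95 (52 higher, 43 lower) and 0, against 50 (22 higher, 28 lower). The strict detection filter passed 17 probes and left Socs4, Socs5 and Socs6 untested. The covariate passed 670 probes and 3 pathway genes, and the fit without 3 arrays 168 and 1, with Socs2 at -0.047. The cause of these shifts was not tested. Correlations of same-numbered deviations over all tested probes were -0.66, 0.60, -0.75 and -0.82. The component with 78.2% of the variance enters all of them, so they cannot decide whether replicate numbers pair the samples. The replicate block passed 3 probes and 0 members. With single arrays left out, between 22 and 125 probes passed, the most without control 3. Fits lacking knockout 1, knockout 3 and knockout 4 passed 33, 23 and 22, and those lacking control 1, control 2 and control 4 passed 24, 22 and 25. Members and pathway genes passing stayed at 0 in those 8 fits. The differences ranged from -0.11 to 0.34 for Socs2, which turned without knockout 1, and from -0.17 to 0.29 for Socs4, which turned without knockout 2 (-0.16), knockout 3 (-0.041) and control 3. Those of Socs5 ranged from -0.64 to 0.068 and turned without knockout 1, control 1 (0.057) and control 4 (0.058). Dim signals limit Socs1, Socs4 and Socs7, which lay close to background.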
